A study of Mus musculus with 2 samples.

Results

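The 9 genes described here encode enzymes of the methionine cycle and of one-carbon metabolism: Mat1a, Mat2a, Gnmt, Ahcy, Bhmt, Cbs, Cth, Shmt1 and Shmt2. They were chosen by name from the 21755 protein-coding genes of GENCODE release M21 on chromosomes 1 to 19 and X. EP300 binding sites were assigned to them by position, taking every peak summit within 50 kb of any annotated transcription start site (TSS) of a member. This gave 53 of the 26844 summits analysed, each belonging to 1 member only. All 9 genes had at least 1 summit, so that 0 members had none.

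The data come from chromatin immunoprecipitation sequencing (ChIP-seq) of EP300, a histone acetyltransferase that transcription factors bring to enhancers and promoters. Whole liver of mice of strain B6NCrl was taken at postnatal age 0 days, with 1 group of 2 replicates and no second condition or genotype. The biosample and donor labels are identical for the pair, so the spread between them may be technical, and whether animals were pooled is not stated in the labels. Peaks are those of the authors' optimal list, filtered by the irreproducible discovery rate (IDR), a measure of how well replicates rank the same peaks.

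The methionine cycle supplies the cell with methyl groups. Methionine adenosyltransferases join methionine to ATP to give S-adenosylmethionine, the methyl donor of most methylation reactions, and the product S-adenosylhomocysteine is split to homocysteine. Homocysteine is either methylated back to methionine or passed through cystathionine to cysteine, and serine hydroxymethyltransferases feed the folate cycle with one-carbon units from serine. The liver is the main organ of methionine breakdown, and Mat1a, Gnmt and Bhmt are known as genes of the mature hepatocyte.

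Newborn mouse liver holds hepatocytes beside blood-forming cells, and a peak in whole tissue cannot be assigned to either. Of 6 hepatocyte marker genes, 5 had a TSS with a summit within 10 kb (Alb, Ttr, Apoa1, Hnf4a and Fgb, but not Serpina1a). All 6 erythroid markers had one, and of 6 markers of other tissues only Sftpc did. The median signal of the strongest such peak was 52.5 for the hepatocyte markers and 212 for the erythroid markers. The part of each cell type in the peaks below was not tested. The signal value is the authors' score per peak from the peak caller, on an unstated scale, and ran from 7.32 to 633 in the optimal list with a median of 38.3. The lists give no read counts, so depth is unknown.

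In the optimal list, every one of the 9 genes had an EP300 summit at its own promoter. A summit lay within 1 kb of a TSS of all 9, against 24.0% of protein-coding genes, and the same 9 had a summit within 10 kb (41.3% of protein-coding genes) and within 50 kb (66.5%). In the authors' stricter conservative list 7 of the 9 had a promoter summit, and Mat2a and Shmt1 did not. The same 7 had one when only the highest peaks of replicate 2 were taken. No test was run on these counts, because the genes were picked by name with results of these data known. The promoter peaks were of ordinary height: the median over members of the strongest promoter signal was 45.0, against 43.4 over the 5218 genes with a promoter summit. Over all 53 member summits the median was 39.3, with 28 of them above the median of the list.

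**Figure D1:**
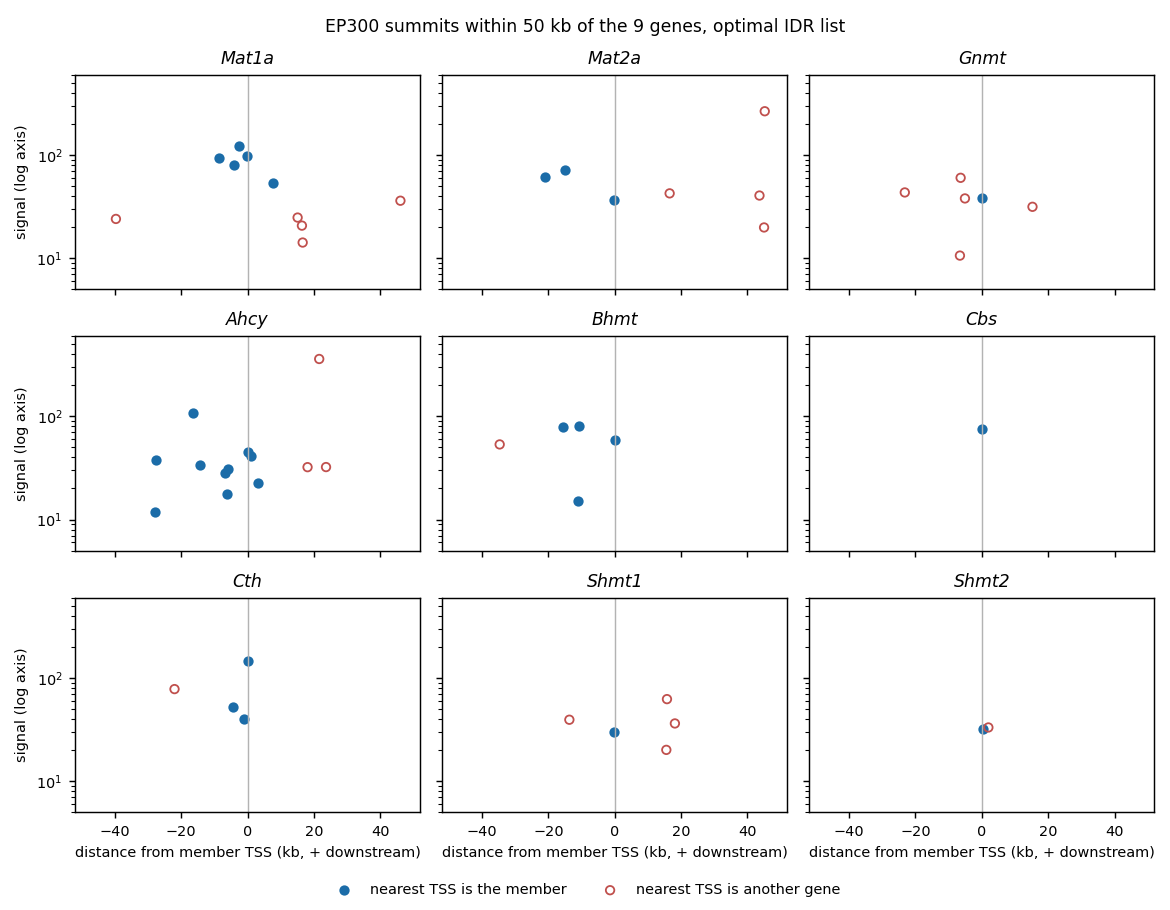
Each panel shows the EP300 summits of the optimal list within 50 kb of 1 gene, with distance from the gene's nearest TSS in kb on the x axis (positive downstream) and the authors' signal value on a log y axis. Filled points are summits whose nearest protein-coding TSS is that of the gene, and open points are nearer to another gene. Every gene has a summit near 0, Mat1a and Ahcy have runs of summits, and Cbs has 1 summit in all.

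Members differed widely in how many summits surrounded them. Ahcy had 13 summits within 50 kb, Mat1a 10, Mat2a 7, Gnmt 6, Bhmt 5, Shmt1 5, Cth 4, Shmt2 2 and Cbs 1. Without summits that overlap a stronger peak, the counts were 11 for Ahcy, 9 for Mat1a, 6 for Mat2a, 5 for Gnmt, 4 for Bhmt and 4 for Shmt1. They were unchanged for Cth, Shmt2 and Cbs. With all summits counted, the mean was 5.89 per member, against 2.69 over all protein-coding genes. Ahcy stood above 98.5% of protein-coding genes in this count and Mat1a above 95.7%, while Cbs stood above 33.5%, which is the share of genes with none.

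**Figure D2:**
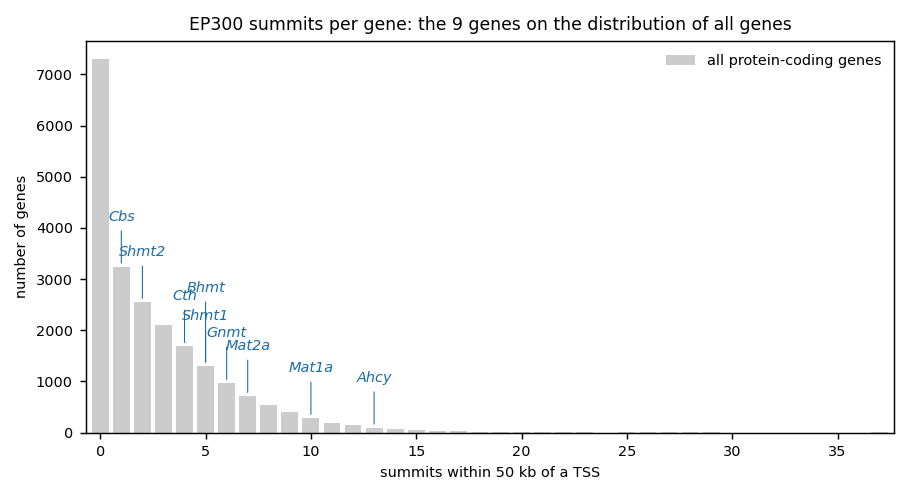
Bars give the number of protein-coding genes by how many EP300 summits lie within 50 kb of a TSS, with the 9 genes marked above the bars of their own counts. Cbs (1) and Shmt2 (2) stand at the low end, and Mat1a (10) and Ahcy (13) in the thin upper tail.

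Not all of these summits are closest to the gene they were assigned to. For 29 of the 53 the nearest protein-coding TSS was that of the member, and these had a median signal of 45.0. The other 24 were nearer to a neighbouring gene and had a median of 36.0. By place, 10 summits lay within 1 kb of a member TSS, 10 within 1 kb of a neighbour's TSS and 33 away from both. The windows were laid around start sites, so nothing is read from the promoter share of 37.7%, against 23.4% of the whole list. Of the 33, 22 were intergenic, 8 intronic and 3 in untranslated exon sequence.

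The methionine adenosyltransferase genes form a pair in which Mat1a is the form of the adult liver and Mat2a the form of most other tissues and of dividing cells. Mat1a (chromosome 14, 41105035 to 41124412, plus strand) carried a compact run of strong peaks. Its promoter summit, 132 bases upstream of a TSS at position 41104903, had a signal of 59.6 in replicate 1 and 39.4 in replicate 2, and 96.4 in the optimal list. A peak 2.53 kb upstream (summit 41102502) was the strongest of the locus, with 71.0 and 50.1 in the replicates and 120.9 in the optimal list. Both replicates thus placed the upstream peak above the promoter peak.

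Further Mat1a summits stood 4.11 kb upstream at 79.5 and 8.55 kb upstream at 93.4, and 1 in an intron 7.74 kb downstream at 53.5. The summed signal of the 5 summits within 10 kb of a Mat1a TSS was 444, above that of 98.5% of protein-coding genes. Beyond that run the signals were lower. In Mat1a introns 15.1 to 16.6 kb downstream, 3 summits had 24.6, 20.6 and 14.1. The peak with 14.1 overlaps the one with 20.6. A summit 39.7 kb upstream in an intron of Dydc2 had 23.9. The summit 46.0 kb downstream (35.9) lay 48 bases from a TSS of Mbl1, which encodes a mannose-binding lectin.

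Mat2a (chromosome 6, 72432799 to 72439558, minus strand) had a single summit within 10 kb, 190 bases upstream of a TSS at position 72439748. It had 33.4 in replicate 1, no matching peak in replicate 2 and 36.5 in the optimal list. Mat1a thus had the higher promoter signal of the pair in the optimal list and in replicate 1, and was the one with a promoter peak in replicate 2. Intergenic summits 14917 and 20997 bases upstream of Mat2a had 70.7 and 61.4, each higher than the promoter peak and each matched in both replicates.

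On the other side of Mat2a, the strongest peak of the window (264) was 119 bases from a TSS of Vamp8, which encodes a vesicle fusion protein, and 45.2 kb from Mat2a. A summit in a coding exon of Ggcx, which encodes the vitamin K dependent carboxylase of clotting factors, had 42.3. Further summits near Vamp8 had 40.3 and 19.8, and the peak with 19.8 overlaps the one with 264. The threshold of 50 kb falls within this stretch: the next summit outward, 50.9 kb from Mat2a and nearest to Vamp5, had a signal of 212 and was not counted. Outside the window up to 60 kb, 2 summits in all lay near Mat2a, 2 near Gnmt and 1 near Mat1a.

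The sequences of several of these sites were read from the GRCm38 assembly, the same as mm10, on the sense strand of each gene, 5′ to 3′. They run 50 bases to each side of the summit where that window holds no annotated untranslated exon, and are shortened where it does. Capitals mark matches to the 15 motifs searched on both strands, which are spelled out with the motif counts further on, and a match on the other strand appears as its reverse complement. The first 2 compare the Mat1a promoter window (chr14:41104853-41104953, plus strand), which held no match, with that of Mat2a (chr6:72439698-72439798, minus strand), which held none either but has far more CpG dinucleotides around it. The third is the stronger Mat1a peak upstream (chr14:41102452-41102552, plus strand), with a GATA match.
Mat1a promoter: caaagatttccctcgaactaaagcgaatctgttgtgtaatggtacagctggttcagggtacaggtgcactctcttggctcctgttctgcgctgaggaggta
Mat2a promoter: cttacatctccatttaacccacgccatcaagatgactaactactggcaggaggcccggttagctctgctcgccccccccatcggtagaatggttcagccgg
Mat1a upstream: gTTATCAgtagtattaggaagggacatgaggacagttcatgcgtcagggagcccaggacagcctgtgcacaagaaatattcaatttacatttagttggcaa

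The ratio of observed to expected CpG over 301 bases was 0.32 at the Mat1a promoter summit and 0.99 at that of Mat2a. Both promoters carried an EP300 peak in the optimal list, and that of Mat2a had no match in replicate 2.

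Gnmt encodes glycine N-methyltransferase, which uses S-adenosylmethionine to methylate glycine and so disposes of surplus methyl groups. It lies on chromosome 17 (46725664 to 46729168, minus strand). Its promoter summit, 40 bases upstream at position 46729208, had 25.4 in replicate 1, 10.4 in replicate 2 and 38.5 in the optimal list. Upstream of it stood peaks at 5.09 kb (37.8) and 6.39 kb (59.8). Both are closer to Cnpy3, which encodes a chaperone of Toll-like receptors, than to Gnmt. A weak summit 6.60 kb upstream (10.5), in an untranslated exon of Cnpy3, belongs to a peak that overlaps the one at 6.39 kb. The other summits of the window lay at the promoters of Cnpy3 (43.2) and Pex6 (31.3), and the Pex6 peak had no match in replicate 2.

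Ahcy encodes adenosylhomocysteinase, which splits S-adenosylhomocysteine and so relieves the product inhibition of methyltransferases. It lies on chromosome 2 (155059310 to 155074497, minus strand), and a summit stood 13 bases from its TSS at position 155074460. This had 23.5 in replicate 1, 18.1 in replicate 2 and 45.0 in the optimal list. Intronic summits 867 bases and 3.25 kb downstream had 41.3 and 22.4. Upstream of the gene, 7 summits were spread over 5.89 to 27.8 kb, with signals of 11.8 to 108. The strongest of these, 16.6 kb upstream (summit 155091115), had 75.9 and 31.5 in the replicates. The summits at 6.13 kb (17.7) and 27.8 kb (11.8) belong to peaks that overlap a stronger one.

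The highest peak of all 53 also fell in the Ahcy window, though not beside Ahcy. Its summit at position 155052889 lay 21.6 kb downstream of the Ahcy TSS and 5.27 kb from the nearest TSS of the agouti gene, which the annotation names a and which encodes a signal protein of coat colour. It had 219.8 in replicate 1, 143 in replicate 2 and 359.9 in the optimal list, where it ranked 236. Summits on both sides of it, 18043 and 23612 bases from the Ahcy TSS, had 32.2 and 32.3, so that it stands alone in height. Which gene this site acts on was not tested.

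Bhmt encodes betaine-homocysteine methyltransferase, which remakes methionine from homocysteine with a methyl group from betaine. On chromosome 13 (93616675 to 93637961, minus strand), its promoter summit 191 bases downstream of a TSS at position 93637770 had 37.0 in replicate 1, 24.5 in replicate 2 and 59.6 in the optimal list. Upstream peaks 10.9 and 15.7 kb away had 80.1 and 78.1, both higher than the promoter in the optimal list. The first had 60.6 and 20.3 in the replicates and the second 38.8 and 36.0. The replicates thus differ on which of these is higher, and in replicate 2 the first was lower than the promoter peak. A summit 11.1 kb upstream (15.2) belongs to a peak that overlaps the first. The farthest summit, 34.7 kb upstream at 53.5, lay in an intron of Bhmt2, whose product remethylates homocysteine with S-methylmethionine.

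Cbs and Cth encode the enzymes of transsulfuration, cystathionine beta-synthase and cystathionine gamma-lyase, which carry sulfur from homocysteine to cysteine. With Mat1a they had the 3 strongest promoter peaks, but their surroundings differed. Cbs (chromosome 17, 31608894 to 31637238, minus strand) had its only summit 43 bases upstream of a TSS, at position 31636692. The peak had 48.4 in replicate 1, 28.6 in replicate 2 and 75.2 in the optimal list, above 80.0% of genes with a promoter summit. Within 50 kb, 7 peaks of replicate 1 overlapped a peak of replicate 2 without being in the optimal list. The strongest of them had 15.6 in replicate 1 and 4.71 in replicate 2. Such peaks are not particular to Cbs: the count was also 7 at Cth, and over the members it ran from 0 at Shmt2 to 11 at Mat1a. It was not taken over all genes.

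The Cth promoter peak was the strongest promoter peak of the 9 genes. Cth lies on chromosome 3 (157894248 to 157925077, minus strand), and the summit at position 157925054 stood 3 bases from a TSS. It had 99.9 in replicate 1, 51.1 in replicate 2 and 145 in the optimal list, above 94.1% of genes with a promoter summit. Summits 1.00 kb and 4.54 kb upstream had 39.6 and 52.7. The first of these lies 1002 bases from the TSS and so falls just outside the promoter distance of 1 kb. The last summit, 22042 bases upstream at 77.9, was at the promoter of Ankrd13c, 120 bases from its TSS.

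The sites below are a selection from the transsulfuration, remethylation, hydrolysis and glycine methylation genes, shown because each is the promoter peak or a strong peak of its gene and holds a motif match. Other summits of these genes, the Bhmt and Ahcy promoters among them, also held matches. At Cth (chr3:157925073-157925104, minus strand) the capitals mark an HNF4A match, and at Cbs (chr17:31636681-31636710, minus strand) a CEBP match, with only 30 bases shown because the Cbs summit lies in an untranslated exon of some transcripts. The Cth stretch ends with the match, which crosses the start of an untranslated exon, and so stops short of the summit. The full Cbs window also held a FOXA match, which is not shown. At the Bhmt peak 10.9 kb upstream (chr13:93648785-93648885, minus strand) they mark a nuclear receptor core sequence and a CEBP match. The peak between Ahcy and the agouti gene (chr2:155052839-155052939, minus strand) is shown as the strongest of the set, with an NFY match. The Gnmt promoter (chr17:46729169-46729258, minus strand) also has an NFY match.
Cth promoter: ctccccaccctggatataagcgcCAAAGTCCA
Cbs promoter: tttggatggagaccgctgTTTCGCAAattg
Bhmt upstream: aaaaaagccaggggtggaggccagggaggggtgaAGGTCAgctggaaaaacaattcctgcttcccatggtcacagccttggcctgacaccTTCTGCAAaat
Ahcy downstream: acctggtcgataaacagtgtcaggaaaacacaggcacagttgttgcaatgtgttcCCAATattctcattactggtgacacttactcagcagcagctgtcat
Gnmt promoter: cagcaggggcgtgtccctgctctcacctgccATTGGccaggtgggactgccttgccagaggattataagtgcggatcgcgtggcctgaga

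Shmt1 and Shmt2 encode the cytosolic and the mitochondrial serine hydroxymethyltransferase, and had the weakest promoter peaks in the optimal list. Shmt1 (chromosome 11, 60788104 to 60811718, minus strand) had an intronic summit 77 bases upstream of an internal TSS at position 60811342. The peak had 17.8 in replicate 1, 5.86 in replicate 2 and 30.2 in the optimal list, above 24.7% of genes with a promoter summit. Its rank in replicate 2 was 62621, beyond the 26844 highest peaks of that list. The other 4 summits of its window were nearer to other genes. The stretch between Top3a and Smcr8 had 62.3, an untranslated exon of Smcr8 had 20.1, an intron of Top3a had 36.2, and a site nearest to Dhrs7b had 39.3. The peak with 20.1 overlaps the one with 62.3.

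Shmt2 (chromosome 10, 127517123 to 127522444, minus strand) had an intronic summit 469 bases downstream of a TSS, at position 127521895. It had 15.9 in replicate 1, 11.8 in replicate 2 and 31.8 in the optimal list. The second summit of the window (33.1) was nearest to Ndufa4l2. These are the lowest promoter signals of the set in the optimal list. In replicate 2 the Gnmt promoter (10.4) was lower than that of Shmt2, and Mat2a had no peak. The order of the pair changes between lists: replicate 1 was higher at Shmt1, while replicate 2 and the optimal list were higher at Shmt2.

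Their sequences also differ. The Shmt1 window (chr11:60811292-60811392, minus strand) had 2 SP matches and an NFY match between them. The Shmt2 window (chr10:127521845-127521945, minus strand) had a GATA match beside a run of alternating g and t.
Shmt1 promoter: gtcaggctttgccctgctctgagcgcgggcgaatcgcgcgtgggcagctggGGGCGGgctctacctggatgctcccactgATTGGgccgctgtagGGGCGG
Shmt2 promoter: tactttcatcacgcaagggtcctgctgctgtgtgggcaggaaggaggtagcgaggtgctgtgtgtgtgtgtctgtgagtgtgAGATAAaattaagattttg

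**Figure D3:**
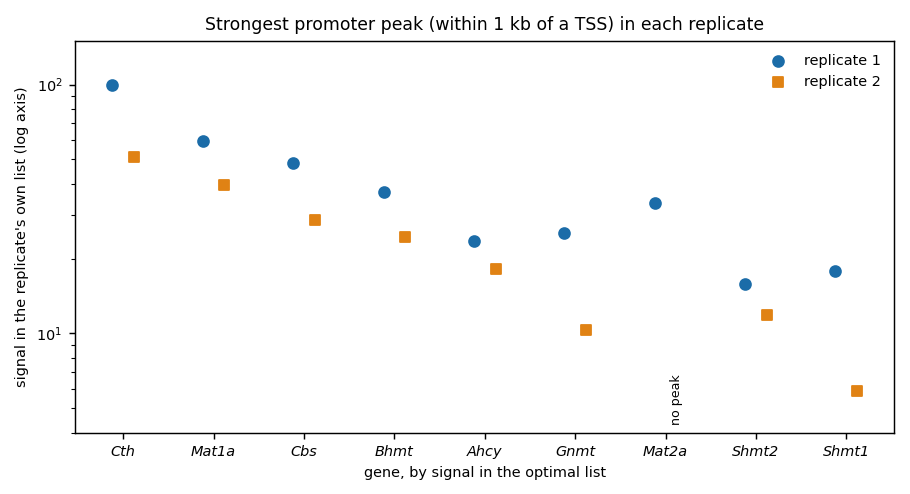
Points give the authors' signal value of the strongest promoter peak of each gene in the list of replicate 1 (circles) and of replicate 2 (squares), on a log axis, with genes ordered by signal in the optimal list. Cth, Mat1a and Cbs lead in both replicates, Shmt1 and Shmt2 are low in both, Gnmt lies below Shmt2 in replicate 2, and Mat2a has no peak in replicate 2.

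Most of the 53 peaks overlapped a peak in the list of each replicate. Those lists hold 299855 peaks each, and the optimal list derives from them. Such overlap was thus largely set in advance and does not measure reproducibility. The weakest match in replicate 2, in an intron of Mat1a, had a signal of 4.81 and rank 117173. A peak of replicate 1 overlapped all 53 by at least 1 base (100%, 95% Clopper-Pearson interval 93.3 to 100), against 99.8% of all optimal peaks. Replicate 2 had a match for 51 (96.2%, interval 87.0 to 99.5), against 95.9% of all optimal peaks. The unmatched peaks were those at the promoters of Mat2a and Pex6. When the match had to be among the highest 26844 peaks of the replicate, 47 of 53 were matched in replicate 1 (88.7%, against 85.9% of all optimal peaks) and 45 in replicate 2 (84.9%, against 76.4%). With this rule the share of replicate 1 lies near that of the list as a whole, and the share of replicate 2 is higher than that of the list. Neither difference was tested. Of the 53, 43 had a peak with the same start, end and summit in the stricter conservative list (81.1%, against 74.4%). That list held 50 summits in the same windows, so these shares count identical coordinates and not presence of a site.

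Signal values of the replicates ran together. Over the 44 member peaks found in both replicates, leaving out summits that overlap a stronger peak of the list (7 of 53, against 8.63% of the list), Spearman's rho was 0.70 and Pearson's r on log2 values 0.81. Over 23516 such peaks of the whole list the values were 0.74 and 0.82. Peaks share their library and locus, so these are descriptions. The list was also filtered by how well replicates rank the same peaks, so part of this agreement was set in advance. The log2 ratio of replicate 1 to replicate 2 had a median of 0.78 (SD 0.60) at member peaks and 0.95 (SD 0.65) over the list, and the scale of either list is not stated. The summit lay a median of 8.5 bases from that of replicate 1 and 16 bases from that of replicate 2.

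The 10 promoter summits of the 9 genes varied in CpG content. At 5 of them the observed over expected ratio was at least 0.6, at Mat2a, Ahcy (0.88), Cbs (0.79), Cth (0.63) and Shmt1 (0.63). It was lower at Gnmt (0.48), Shmt2 (0.45), Bhmt (0.33), Mat1a and the intronic summit of Ahcy (0.23). Of all 6294 promoter summits in the list 53.5% were at or above 0.6. The strongest promoter peaks, Cth and Mat1a, lie on both sides of 0.6, and so do the weakest in the optimal list, Shmt1 and Shmt2.

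**Figure D4:**
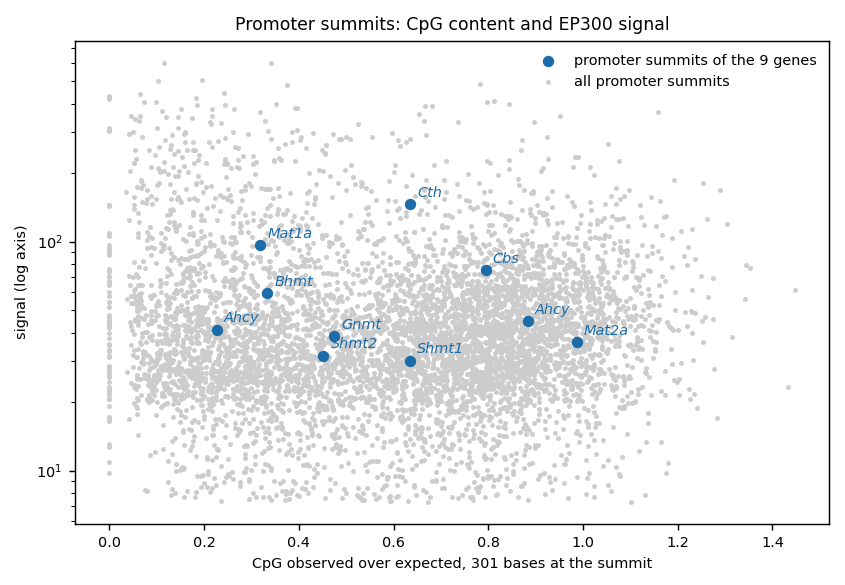
The x axis gives the CpG observed over expected ratio in 301 bases centred on the summit and the y axis the authors' signal value on a log scale, for the 10 promoter summits of the 9 genes (large points) and for all 6294 promoter summits (small points). The genes lie within the cloud, with Cth at 145 the highest and Shmt1 at 30.2 the lowest.

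Motif matches in the 101 bases around each summit were counted as a description. The sequence AGATAA or its variant TGATAA, recognised by GATA factors, was found at 12 of the 53 summits (22.6%), against 32.8% of all summits in the list. The NFY sequence CCAAT was found at 13 (24.5%), against 13.1%. The nuclear receptor core sequence AGGTCA was found at 9 (17.0%), against 9.12%, FOXA (TGTTTAC or TATTTAC) at 4 (7.55%), against 4.82%, and SP (GGGCGG) at 4 (7.55%), against 6.71%. CEBP (TTGCNNAA) was found at 3 (5.66%), against 8.93%, and E-box (CACGTG) at 2 (3.77%), against 2.26%. Sequences for HNF4A (CAAAGTCCA), AP-1 (TGAGTCA or TGACTCA), ETS (CCGGAAG) and KLF (CCACACCC) were found at 1 summit each, and at 0.74%, 4.40%, 2.76% and 1.54% of all summits in that order. Those for HNF1 (GTTAATNAT), CRE (TGACGTCA), NRF1 (GCGCATGCG) and a joint CEBP and ATF site (TTGCATCA) were found at 0, and at under 1% of all summits each. Promoters make up 37.7% of the member summits against 23.4% of the list, and motif shares differ by place. At the 33 member summits away from promoters, GATA was found at 8, NFY at 7 and AGGTCA at 5. Over all summits of the list away from promoters, the shares were 38.1%, 11.8% and 10.2% in that order. At the 10 member promoter summits, GATA was found at 2, NFY at 3 and AGGTCA at 2. Over all promoter summits of the list, the shares were 15.5%, 17.2% and 5.77%. At these numbers a few summits decide each share, and no test was run. One summit 14.3 kb upstream of Ahcy held a GATA match that runs directly into a FOXA match.

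The wider pathway was looked up from a list of 62 other genes, all of which matched the annotation. Of these, 27 (43.5%) had a promoter summit, 39 (62.9%) had one within 10 kb and 54 (87.1%) within 50 kb. The corresponding shares of all protein-coding genes are those given above, 24.0%, 41.3% and 66.5%. For these 62 genes it was not recorded whether the TSS of another gene lay nearer to a summit.

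Among these groups, genes of cysteine, glutathione, taurine and sulfide metabolism most often had a summit nearby, with 9 of 9 within 10 kb and 6 of 9 within 1 kb. Their strongest peaks stood 3.29 kb from Mpst, which encodes a mercaptopyruvate sulfurtransferase (174), and 6.52 kb from Sqor, which encodes the sulfide oxidising enzyme of mitochondria (110). Of genes for methyl donors and acceptors 10 of 13 had one within 10 kb, led by the promoters of Sardh (87.0) and Dmgdh (85.6), whose enzymes break down sarcosine and dimethylglycine. Dmgdh is a neighbour of Bhmt2 and Bhmt on chromosome 13. Ahcyl2, Chdh and Slc25a26, the mitochondrial carrier of S-adenosylmethionine, had none within 10 kb.

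Glycine and serine genes had 6 of 9 within 10 kb. The highest were 2.32 kb upstream of Agxt, which encodes the enzyme that clears glyoxylate (113), and at Psph, which encodes the last enzyme of serine synthesis (67.1). Phgdh, Dld and Gcsh had none. Folate cycle and transport genes had 10 of 22, close to the share of all genes, led by the promoter of Mthfd1, the trifunctional cytosolic enzyme (110). Tyms, Atic, Mtrr and Aldh1l2 had none even within 50 kb. Polyamine and methionine salvage genes had 4 of 9, with the highest peak within 10 kb of any of the 62 genes 6.55 kb upstream of Odc1, the first enzyme of polyamine synthesis (344, with 205 and 141 in the replicates), and with 35.7 near Enoph1.

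**Figure D5:**
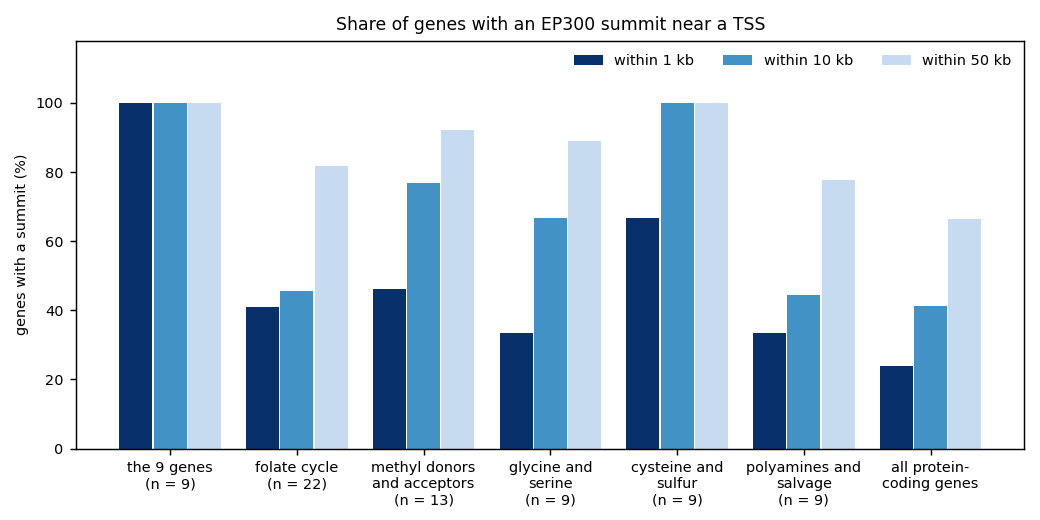
Bars give the percent of genes with an EP300 summit within 1, 10 and 50 kb of a TSS, for the 9 genes, for 5 groups of other pathway genes and for all protein-coding genes. The 9 genes stand at 100% at each distance, the cysteine and sulfur group reaches 100% within 10 kb, and the folate group lies near the share of all genes at that distance.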

How the data were processed

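EP300 ChIP-seq of newborn mouse liver was analysed from the authors' 5 deposited peak lists on mm10 (1 group, 2 replicates). Per the file descriptions, peaks were called against a control alignment, and both IDR lists derive from the replicate lists and a list called on the pair. The aligner, caller and IDR threshold are not stated in these sources. Column 7 of the deposited lists is the authors' signal value per peak and column 5 of the IDR lists an IDR score, up to 1000. Column 10 is the summit offset, and the summit is column 2 plus column 10, printed 1-based. Peaks outside chromosomes 1 to 19, X and Y (39 in the optimal list) were left out. All peaks ended inside the reference on 21 of 21 chromosomes. The files held 0 columns of other series.

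TSSs of all transcripts came from GENCODE M21 and sequence from GRCm38. A promoter summit lies within 1 kb of a TSS. A peak was matched to the highest replicate peak that overlapped it by at least 1 base. Overlapping peaks therefore share a match. Intervals cover the counting of peaks only. Gene positions in clusters are not independent, and p-values were not computed, since 1 group allows no contrast.

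The members, the gene lists and the motifs were chosen with earlier results of these data known. All members were named, and for each other group the 2 strongest peaks within 10 kb, except 1 that is not reported here. Neighbours, genes with none and further matches were named after their values were seen. Scripts ran on Python 3.11.15 with pandas 2.3.3, scipy 1.17.1 and pysam 0.24.0, and the assignment and matching steps were tested on simulated peaks.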

Additional observations from a re-analysis of the deposited data

How the results depend on the processing

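The number of members with a summit within 50 kb was 9 in each alternative except with the top 50% of optimal peaks by signal, where Shmt2 had none (8). Promoter summits were kept by 7 members in the conservative list, without Mat2a and Shmt1, and by 6 among the top 50% of peaks, where Shmt2 was missing as well. Leaving out a replicate and taking the highest peaks of the other gave 7 to 9 members with a promoter summit (Mat2a and Shmt1 were without one when only replicate 2 was used), 48 to 55 summits, and a median signal of 16.3 to 26.8 on the scale of the single list. The 53 summits became 28 among the top 50% of peaks, whose median signal was 61.8. They were 24 within 10 kb, 83 within 100 kb and 29 when only summits nearest to a member TSS were taken, each by construction of the window or rule. Replicate 1 matched 88.7% of member peaks when only its highest peaks were used. Replicate 2 matched 84.9% with that rule, 83.0% with 50% reciprocal overlap, 83.0% with summits within 100 bases, and 100% of the member peaks of the conservative list. Leaving out peaks that overlap a stronger peak, an alternative chosen after seeing the data, gave 46 summits. Unknown depth limits any statement on weak or missing peaks. No paired analysis was possible because there is only 1 group.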
